A study of Capra hircus with 10 samples.

Results

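Annotated long non-coding RNAs (lncRNAs) of the goat ovary were taken from a table of 50146 transcripts as the rows that carried the gene type lncRNA, which left 997 transcripts of 807 genes, all with the XR identifiers that RefSeq gives to non-coding RNAs. The 176 transcripts typed as misc_RNA, and the lncRNAs that were assembled from the reads themselves, were left out. Whole ovaries of Anhui white goats were compared, 5 of them luteal phase and 5 follicular phase ovaries, with 1 RNA library for each. The ovaries came from a slaughterhouse, the labels name no treatment, and the sources used here state no age, no day of the cycle and no hormone level. The question was which annotated lncRNAs an ovary held in each phase, and how much of each. Expression was given as FPKM, fragments per kilobase of transcript scaled to the size of the library, which can be compared between transcripts because it is per length. The read depth of each ovary is unknown, so the spread between ovaries is the only measure of precision. A listed 0 does not show that a transcript was absent.

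An lncRNA is a long transcript without a recognised protein-coding reading frame, and many are spliced and polyadenylated like mRNA. Some act in the nucleus on chromatin or on nuclear bodies, others act in the cytoplasm on the stability or translation of mRNAs, and most have no known function. In the ovary they are studied because the tissue is rebuilt in each cycle. A follicle with its granulosa and theca cells matures in the follicular phase, and after ovulation it turns into the corpus luteum, which is rich in vessels and makes progesterone. Most goat lncRNAs have no functional name, and 937 of the 997 transcripts, from 782 genes, carried only a LOC number. None of 22 well-known lncRNA symbols that were looked up, NEAT1, H19 and MALAT1 among them, was found as a symbol of these rows. With so many LOC numbers, this does not show that those lncRNAs were missing from the set.

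The markers of the tissue separated the phases. All 4 tested luteal cell markers were higher in the luteal phase, and their summed FPKM lay between 3714 and 5456 there and between 53.9 and 67.0 in follicular ovaries. All 5 endothelial markers were also higher in the luteal phase, summed at 184 to 236 against 79.7 to 92.6. The theca marker INSL3, 5 of 6 oocyte markers, 4 of 7 granulosa markers and all 4 smooth muscle markers were higher in the follicular phase. Granulosa markers were summed at 104 to 674 in luteal and 236 to 1132 in follicular ovaries, and smooth muscle markers at 524 to 941 and 1140 to 1439. Of 5 stromal markers 2 were higher in the luteal phase, with sums of 1929 to 3463 and 1705 to 2415, none of 3 immune markers passed the test, and the red cell marker ALAS2 reached at most 0.0168 FPKM. Of 3 tested epithelial markers, MSLN was higher in the luteal phase (log2 fold change 2.23, adjusted p = 0.000232), and KRT8 and KRT18 did not pass the test but stood at 26.6 and 14.3 FPKM in follicular replicate 2, against at most 8.48 and 3.94 FPKM in the other follicular ovaries. In whole ovaries, fewer cells of a type and less RNA per cell cannot be told apart, and the part of cell composition in the lncRNA differences below was not tested.

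Annotated lncRNAs were a small share of the measured RNA, and that share was lower in the luteal phase. Their summed FPKM was 7986, 9272, 8162, 8903 and 7634 in luteal replicates 1 to 5 and 8990.5, 10914, 9578, 10441 and 10076 in follicular replicates 1 to 5. The ranges overlapped only through luteal replicate 2, which lay above follicular replicate 1. The means were 8391 ± 676 and 10000 ± 747 (SD, n = 5), and an exact permutation test of the ovaries gave p = 0.0159 (two-sided, adjusted p = 0.0397 over 5 summary measures). As a share of the FPKM of all transcripts, the lncRNAs held 1.75% ± 0.0708 and 1.95% ± 0.0779 (SD, n = 5, exact p = 0.0159, adjusted p = 0.0397).

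For the number of lncRNAs detected, no difference between the phases passed the test. Between 929 and 939 of the 997 transcripts had an FPKM above 0 in a luteal ovary and between 925 and 958 in a follicular ovary, with means of 935 ± 4.64 and 939 ± 13.0 (SD, n = 5, exact permutation p = 0.595). At least 0.1 FPKM was reached by 881 to 891 transcripts in luteal and by 861 to 913 in follicular ovaries, and at least 1 FPKM by 381 to 400 and 368 to 439. Of all 997 transcripts, 791 were above 0 in all 10 ovaries and 1 was listed at 0 in every ovary. The median transcript had 0.692 ± 0.0264 FPKM in the luteal and 0.742 ± 0.0800 FPKM in the follicular phase (exact p = 0.183).

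Whether these lncRNAs stood above or below mRNA in level depended on how the mRNA transcripts were counted. Over transcripts with a mean above 0 FPKM, the lncRNA median was 0.717 and the mRNA median 0.653, and the lncRNA median was higher in 10 of 10 ovaries (exact sign test, p = 0.00195). Of those mRNA transcripts, however, 23.35% had a mean under 0.1 FPKM, against 3.51% of the lncRNAs. Over transcripts with a mean of at least 0.1 FPKM, the medians were 0.759 and 1.52, and the lncRNA median was lower in 10 of 10 ovaries. With transcripts summed per gene they were 0.814 and 3.42, and lower again in 10 of 10. The log2 ratio of the medians was 0.142 ± 0.0365 in the luteal and 0.125 ± 0.0627 in the follicular phase (SD, n = 5, exact permutation p = 0.627).

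Abundance was concentrated in a few transcripts. Averaged over the ovaries, the most abundant lncRNA held 34.1% of the summed lncRNA FPKM, the top 2 held 60.6%, the top 10 held 71.7% and the top 100 held 89.4%. By mean FPKM, 5 transcripts stood at 100 or more and held 67.0% of the total, 54 stood between 10 and 100, 353 between 1 and 10, 237 between 0.5 and 1, 312 between 0.1 and 0.5 and 36 below 0.1. The share of the top 10 was 70.5% ± 2.13 in luteal and 72.6% ± 1.86 in follicular ovaries (SD, n = 5, exact permutation p = 0.135, adjusted p = 0.225). Sums over 5 sets of transcripts were compared on the FPKM as deposited, and not as shares of all FPKM. As deposited, the median log2 fold change of all tested transcripts was itself -0.15. The luteal sum was lower with a passing test for the dominant pair and for the transcripts beyond the top 10. The top 2 summed to 4966 ± 568 FPKM in the luteal and 6179 ± 587 FPKM in the follicular phase (exact p = 0.0159, adjusted p = 0.0397). The 987 transcripts beyond the top 10 summed to 2468 ± 115 and 2731 ± 89.9 FPKM, with ranges of 2335 to 2594 and 2622 to 2823 that did not overlap (exact p = 0.00794, the smallest that 5 against 5 ovaries allow, adjusted p = 0.0397 over the 5 sets). The other sets did not pass the test. The 3rd to 10th transcripts summed to 957 ± 99.1 and 1090 ± 137 FPKM (exact p = 0.135, adjusted p = 0.169), and, within the 987, the 353 transcripts of 1 to 10 FPKM to 973 ± 37.2 and 1043 ± 54.6 FPKM (exact p = 0.0556, adjusted p = 0.0926). The 585 transcripts under 1 FPKM, also within the 987, together made up only 257 ± 8.31 and 274 ± 33.2 FPKM (exact p = 0.310).

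The most abundant lncRNA was XR_001295696.2, of the gene LOC102168701. It had 2587, 3219, 2813, 3013 and 2495 FPKM in luteal replicates 1 to 5 and 2778, 3921, 3197, 3884 and 3473 FPKM in the follicular ones. The phases overlapped, and the log2 fold change on the log2(FPKM + 0.1) scale, luteal minus follicular, was -0.28 ± 0.11 (SE) with an adjusted p of 0.120 by limma over all 32842 transcripts tested. On the goat assembly ARS1.2, as RefSeq annotates it, this gene lies between ZC3H10, a zinc finger gene, and PA2G4, which codes for a growth-related RNA-binding protein.

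The next in abundance, XR_001919240.1, carried the symbol RPL37A, which in other species names a protein of the large ribosomal subunit. It had 1838, 2441, 2116, 2400 and 1909 FPKM in luteal and 2653, 2910, 2577, 2773 and 2732 FPKM in follicular replicates 1 to 5. All 5 follicular ovaries lay above all 5 luteal ovaries, with a log2 fold change of -0.36 ± 0.09 (SE) and an adjusted p of 0.0260. The call was lost without luteal replicate 1 or 5 or follicular replicate 4 or 5 (adjusted p up to 0.0583), and under other settings. With each ovary shifted to a common median the log2 fold change was -0.27 (adjusted p = 0.2), and after quantile normalization it was -0.09 (adjusted p = 0.404). Without the trend in the moderation the adjusted p was 0.0731.

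The transcripts behind this pair were all below 340 FPKM. XR_001917021.1 (LOC102190274), which lies beside CCDC51, had 256 to 339 FPKM in the luteal and 255 to 317 FPKM in the follicular phase. XR_310506.3 (LOC102189880), next to ZNFX1, had 143 to 202 and 197 to 223 FPKM. XR_309827.3 (LOC102180089), between PHACTR4 and RCC1, a nucleotide exchange factor of the nuclear transport protein Ran, had 69.9 to 104 and 98.6 to 171 FPKM. None of these passed the test, with adjusted p-values of 0.800, 0.221 and 0.0714, although the last was 0.0331 after quantile normalization. The tenth, XR_311001.3 (LOC102177673), had 48.9 to 75.8 and 65.7 to 97.6 FPKM, again with overlapping phases and an adjusted p of 0.132.

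Among the top 10, the largest phase differences ran in opposite directions. XR_001917685.1 (LOC102188010) had 140, 138, 80.2, 178 and 148 FPKM in the luteal ovaries and 51.1, 33.4, 63.3, 53.5 and 80.5 FPKM in the follicular ovaries. The means were 137 and 56.4 FPKM, the log2 fold change was 1.29 ± 0.25 (SE) and the adjusted p was 0.00681. The phases touched, since luteal replicate 3 lay just under follicular replicate 5. XR_001918883.1 (LOC102168552) had 55.1, 70.3, 49.98, 47.2 and 40.6 FPKM in the luteal and 123, 143, 132, 108 and 161 FPKM in the follicular ovaries. Every follicular ovary was above every luteal one, with a log2 fold change of -1.35 ± 0.15 (SE) and an adjusted p of 0.000277. Its neighbour FAM69B, a kinase-like gene 888 bp away, had 2.06 ± 0.279 and 5.71 ± 1.45 FPKM (SD, n = 5), a log2 fold change of -1.40 ± 0.18.

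XR_001296756.2 (LOC102188339) differed between ovaries more than between phases. It had 107, 75.3, 40.1, 79.4 and 68.3 FPKM in the luteal and 33.9, 290, 73.1, 109 and 38.8 FPKM in the follicular ovaries, so that follicular replicate 2 stood far above the rest and the follicular values enclosed all luteal ones. XR_001296123.2 (LOC106502506), 1286 bp from EPB41L4A, had 46.4 to 77.5 FPKM in the luteal and 71.7 to 110 FPKM in the follicular phase. Its log2 fold change of -0.53 ± 0.16 passed narrowly (adjusted p = 0.0470) and was lost in 14 of 19 alternative settings, among them leaving out any ovary other than luteal replicate 2 and follicular replicate 3 (adjusted p up to 0.0988) and a common median (0.116).

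**Figure D1:**
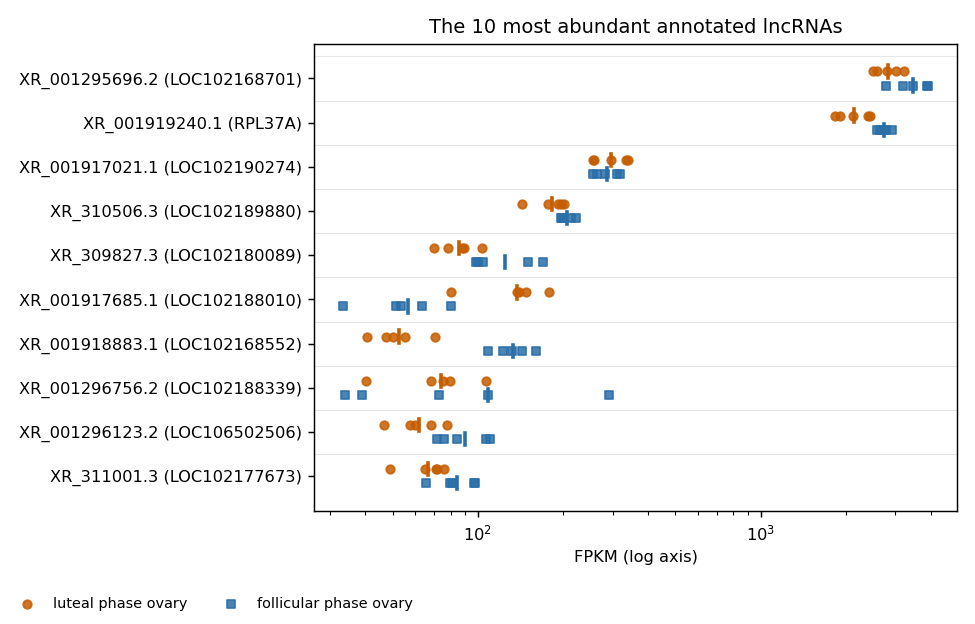
FPKM (log axis) of the 10 most abundant annotated lncRNAs in each ovary, with luteal ovaries as circles and follicular ovaries as squares (5 each) and the mean of each phase as a short bar. The first 2 transcripts lie between 1838 and 3921 FPKM and all others below 340, the phases of XR_001918883.1 are separate, and 1 follicular ovary has 290 FPKM of XR_001296756.2.

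The remaining 60 transcripts, from 25 genes, had a gene symbol rather than a LOC number, and these are names of protein-coding genes in other species. None of these symbols had an mRNA transcript in the table. The transcripts with a symbol had a median of 2.07 FPKM against 0.706 FPKM for those with a LOC number, and 39 of them (65%) reached 1 FPKM against 373 (39.8%). They held 30.8% of the lncRNA FPKM, most of it in the RPL37A transcript. Whether these or the LOC-numbered transcripts, XR_001295696.2 among them, are non-coding was not examined beyond their type in the table. The share of the top 2 rests on that type. Without the transcripts that carry a symbol, the other 937 lncRNAs summed to 5866 ± 413 FPKM in the luteal and 6854 ± 611 FPKM in the follicular phase (SD, n = 5, exact permutation p = 0.0317). This alternative was chosen after seeing the data and keeps XR_001295696.2. GNB2, named after a G protein beta subunit, had 46.6 to 55.8 FPKM in the luteal and 45.1 to 58.5 FPKM in the follicular phase, with an adjusted p of 0.789. C15H11orf31 had 40.5 to 51.9 and 43.8 to 72.8 FPKM, and PIGBOS1 5.88 to 8.03 and 5.89 to 6.93 FPKM, and neither passed the test.

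Of the symbol-bearing transcripts that were tested, 2 of 58 were higher in the luteal and 6 in the follicular phase at an adjusted p under 0.05. That is 13.8%, beside 15.6% of the tested transcripts with a LOC number and 17.3% of all transcripts tested. JAM3 (XR_001917508.1), named after a junctional adhesion molecule, had 29.1, 30.2, 31.0, 25.1 and 26.4 FPKM in the luteal and 34.9, 37.7, 37.4, 33.9 and 43.6 FPKM in the follicular ovaries. The phases did not overlap, and the log2 fold change was -0.40 ± 0.09 with an adjusted p of 0.0123 (0.0621 on the TPM scale). DEXI (XR_311077.2) had 10.5, 10.6, 7.94, 9.17 and 9.92 FPKM against 7.004, 8.01, 7.01, 7.13 and 5.60 FPKM. Luteal replicate 3 lay just below follicular replicate 2, the log2 fold change was 0.47 ± 0.12 and the adjusted p was 0.0239, which rose to at most 0.0553 without luteal replicate 1, 2 or 5. LRRC28 (XR_001919881.1) had 8.45, 8.67, 11.9 and 8.09 FPKM in luteal replicates 1 to 4 but was listed at 0 in luteal replicate 5, while the follicular ovaries had 7.52 to 10.9 FPKM.

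Within a phase, the ovaries differed from each other in most lncRNAs by a moderate amount. The standard deviation between ovaries of a phase on the log2(FPKM + 0.1) scale, pooled over the phases, had a median of 0.477 over the 929 tested lncRNAs, with 0.239 at the 10th and 1.04 at the 90th percentile. It fell with level, from 0.592 at 0.1 to 0.5 FPKM through 0.515, 0.398 and 0.258 to 0.169 at 100 FPKM or more. For mRNA transcripts the medians in the same ranges were 0.708, 0.728, 0.414, 0.188 and 0.189. The lncRNA median was thus the lower one in every range except 10 to 100 FPKM, where it was the higher one. The highest range held only 5 lncRNAs, and these differences were not tested. The median was 0.444 within luteal and 0.458 within follicular ovaries.

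Follicular replicate 2 was the ovary farthest from its phase most often. It was the most distant of its 5 ovaries for 284 of the 929 lncRNAs (30.6%), against 118 to 222 for each other ovary, and its median log2 difference from the others of its phase was -0.20. Among follicular ovaries it had the highest value of 2 of 4 epithelial and 3 of 4 smooth muscle markers and the lowest of all 5 stromal and all 3 immune markers. Summed, these lists were at 43.1, 1439, 1705 and 14.2 FPKM there, against 9.76 to 13.5, 1140 to 1383, 2257 to 2415 and 19.1 to 37.6 FPKM in the other follicular ovaries. The theca marker was also above the others there, at 184 against 123 to 156 FPKM. The luteal cell markers were mixed, with 2 of 4 highest and 1 lowest in that ovary. LHCGR had 18.8 FPKM against at most 11.95 and OXT 3.05 against at most 1.495. PTGFR had 13.8 FPKM against 28.6 to 44.7, so the luteal list summed to 53.9 FPKM against 60.6 to 67.0. The part of these markers in the differences was not tested. Across the 929 lncRNAs, the log2 values of ovaries of 1 phase correlated with r between 0.846 and 0.922, and those of ovaries of different phases with r between 0.763 and 0.852. These correlations are across transcripts, which are not independent replicates, and all transcripts of an ovary share its library.

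**Figure D2:**
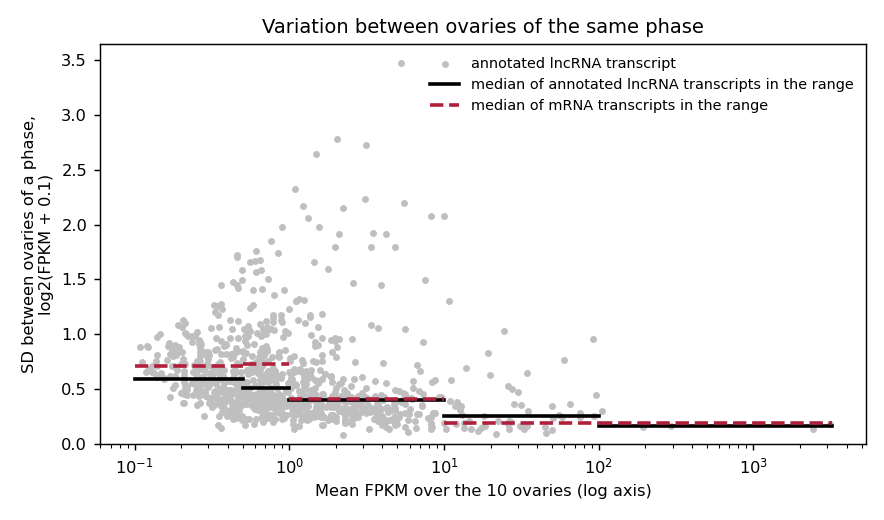
Standard deviation between ovaries of the same phase, on the log2(FPKM + 0.1) scale and pooled over the phases, against mean FPKM (log axis) for each tested annotated lncRNA (points), with the median in each range of mean FPKM for the lncRNAs (solid) and for mRNA transcripts (dashed). The lncRNA median falls from 0.592 to 0.169 from the lowest to the highest range.

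The steadiest lncRNAs above 1 FPKM hardly differed between ovaries. XR_310683.3 (LOC102184183), which lies 4164 bp from the homeobox gene IRX5, had a pooled SD of 0.0849 and ran from 1.97 to 2.25 FPKM in the luteal and from 2.11 to 2.49 FPKM in the follicular phase. XR_001919852.1 (KLC1, named after a kinesin light chain) had 19.5 to 23.5 and 20.6 to 24.3 FPKM. XR_310320.3 (LOC102181394), between OIP5 and CHP1, had 41.9 to 51.8 and 42.3 to 45.6 FPKM, with a log2 fold change of 0.10 ± 0.07 and an adjusted p of 0.353, while the values of its neighbours were 0.584 ± 0.196 and 1.24 ± 0.367 FPKM for OIP5 and 20.8 ± 1.23 and 15.7 ± 1.21 FPKM for CHP1.

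Low spread also let small phase differences pass. XR_001918196.1 (LOC102183584) had 12.5, 12.1, 12.4, 13.7 and 12.5 FPKM in the luteal and 16.9, 20.0, 21.7, 21.7 and 21.9 FPKM in the follicular ovaries. All follicular values were above all luteal ones, and the log2 fold change was -0.68 ± 0.09 (adjusted p = 0.000625). XR_001919672.1 (LOC108638248) had 4.404 to 5.57 FPKM in the luteal and 6.57 to 7.26 FPKM in the follicular phase, a log2 fold change of -0.50 ± 0.10 (adjusted p = 0.00610).

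At the other end stood lncRNAs that were listed at 0 in some ovaries and at several FPKM in others of the same phase. In 51 of the 997 transcripts, a value of 0 stood beside at least 1 FPKM within a phase. The pattern is not particular to lncRNAs. In mRNA, where only the luteal phase was counted, 1822 of 43766 transcripts showed it. Of the 51 lncRNAs, 43 belonged to genes with several annotated transcripts. The most variable, XR_309949.3 (LOC102184495), had 0, 23.5, 3.55, 8.35 and 0 FPKM in the luteal and 0.822, 16.6, 0, 0 and 0 FPKM in the follicular ovaries, a pooled SD of 3.47 on the log2 scale. The sum over both transcripts of its gene ran from 33.6 to 38.3 and from 31.6 to 36.5 FPKM, with a pooled SD of 0.0788. The level of the gene was thus steady while that of its transcripts was not.

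XR_001296408.2, of LOC106502761, a gene that overlaps NOP56, had 20.0 and 21.0 FPKM in luteal replicates 2 and 4 and was listed at 0 in the other 8 ovaries. The 5 transcripts of that gene summed to 42.9 ± 4.95 FPKM in the luteal and 31.0 ± 1.51 FPKM in the follicular phase (SD, n = 5), with a pooled SD of 0.126. XR_001917680.1 (TANGO2) had 5.42, 4.43 and 6.49 FPKM in luteal replicates 2, 4 and 5, 0.457 and 3.62 FPKM in follicular replicates 2 and 4, and 0 in the other 5 ovaries, where its gene sum ran from 5.63 to 7.84 FPKM. For 2 of the 5 most variable transcripts the sum of the gene varied as well. XR_001917985.1 (LOC102170937) had a pooled SD of 2.75 as a transcript and 2.01 as a gene. XR_001917645.1, the only transcript of LOC108634521, was listed at 0 in luteal replicates 1 and 2 and in follicular replicate 2, with 2.99, 3.81 and 4.73 FPKM in the other luteal and 3.57, 5.62, 6.58 and 4.05 FPKM in the other follicular ovaries. None of the 5 passed the test between the phases, with adjusted p-values of 0.578 for XR_309949.3, 0.439 for TANGO2 and 0.599 for XR_001917645.1, and the other 2 were below the filter.

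**Figure D3:**
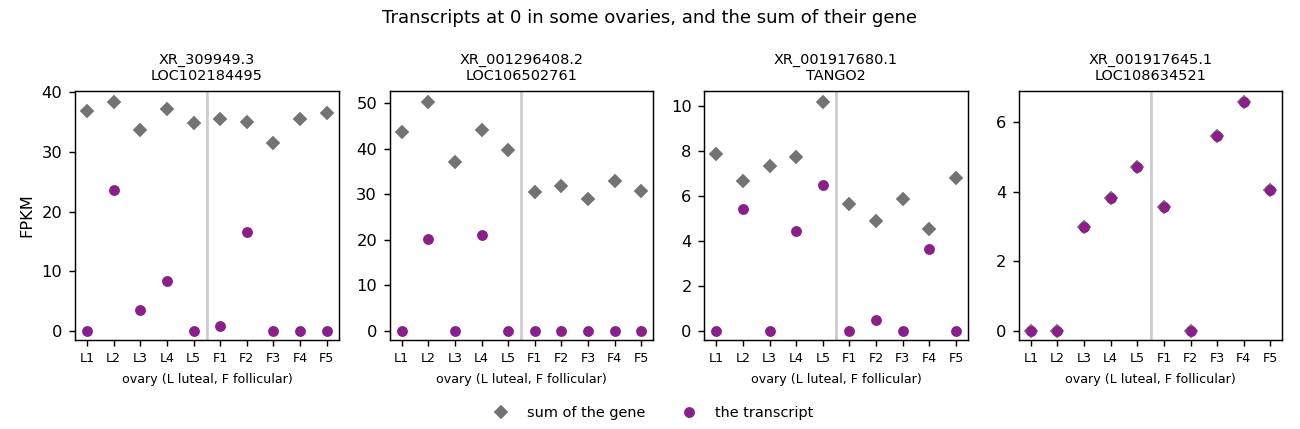
FPKM of 4 lncRNA transcripts (circles) and of the sum over all transcripts of their gene (diamonds) in luteal ovaries L1 to L5 and follicular ovaries F1 to F5. For XR_309949.3, XR_001296408.2 and TANGO2 the transcript moves between 0 and at least 6.49 FPKM while the gene sum does not reach 0, and XR_001917645.1, the only transcript of its gene, is at 0 in 3 ovaries.

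Of the 807 genes, 689 had 1 annotated lncRNA transcript and 118 had several, which together made 308 transcripts. In these 118 genes the major transcript held a median of 68.6% of the gene's FPKM. Its share was compared between the phases in the 92 genes with a sum of at least 1 FPKM, and none passed an adjusted p of 0.05 in the exact permutation test, while 11 had an unadjusted p under 0.05. With 5 ovaries a phase the exact p cannot go below 0.00794, which over 92 genes would pass only if many genes shared it, so a single gene could not pass and the result says nothing about stable shares. In 1 gene, LOC102174435, which lies 2038 bp from the chromatin remodeller CHD2 and was chosen after its values were seen, the transcripts were called in opposite directions. XR_001919846.1 had 29.0, 24.4, 25.3, 23.1 and 29.8 FPKM in the luteal and 35.9, 44.9, 42.6, 39.6 and 49.9 FPKM in the follicular ovaries. XR_001919847.1 had 13.2, 14.6, 12.4, 19.7 and 16.3 FPKM in the luteal and 9.71, 8.13, 7.19, 5.14 and 10.7 FPKM in the follicular ovaries. Neither pair of ranges overlapped, with log2 fold changes of -0.69 ± 0.11 (adjusted p = 0.00183) and 0.91 ± 0.20 (adjusted p = 0.0118). The share of XR_001919846.1 in its gene was 63.4% ± 5.75 in the luteal and 84.0% ± 3.68 in the follicular phase (SD, n = 5, exact p = 0.00794, adjusted p = 0.146 over the 92 genes).

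In the 3 genes with the most annotated transcripts, 1 of 6, 1 of 9 and 0 of 8 tested transcripts were called, beside 15.5% of all tested lncRNAs and 17.3% of all transcripts. LOC102168946, with 10 transcripts and RTL1 as its nearest coding gene at 63680 bp, summed to 18.6, 24.0, 5.11, 9.38 and 11.1 FPKM in the luteal and 5.54, 6.18, 6.48, 5.69 and 5.23 FPKM in the follicular ovaries. Luteal replicates 1 and 2 were high and luteal replicate 3 lay below every follicular ovary. Only 6 of its transcripts could be tested and 1 was called, XR_001297060.2, with 2.40, 3.02, 0.977, 1.63 and 1.18 FPKM against 0.694, 0.408, 1.08, 0.787 and 0.691 FPKM, a log2 fold change of 1.16 ± 0.34 (0.67 with 1 added) and an adjusted p of 0.0420 that rose to as much as 0.0881 without luteal replicate 1, 2 or 4 or follicular replicate 1, 2, 4 or 5 and was 0.0574 without a filter. XR_001297061.2 had 2.31 and 2.56 FPKM in luteal replicates 1 and 2 and at most 0.0992 FPKM in any other ovary.

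HNRNPF, a symbol that names an RNA-binding splicing protein, had 9 transcripts that summed to 138 ± 16.03 and 150 ± 26.7 FPKM (SD, n = 5). Its largest, XR_001917402.1, had 45.9 to 58.6 and 44.8 to 85.1 FPKM. XR_001917403.1 was the only one called, with 2.22 to 5.73 FPKM in the luteal and 5.40 to 8.58 FPKM in the follicular phase, a log2 fold change of -0.84 ± 0.24 and an adjusted p of 0.0350. That call was lost without luteal replicate 1, 2 or 3 or follicular replicate 1, 2, 3 or 4 (adjusted p up to 0.0806), on the TPM scale (0.0728), with a common median (0.0734) and with quantile-normalized values (0.0521), and in 11 of 19 settings in all. In follicular replicate 2, XR_001917406.1, XR_001917401.1 and XR_001917408.1 had 17.4, 14.8 and 14.1 FPKM, against at most 8.56, 8.98 and 5.54 FPKM in the other follicular ovaries. KLC1 had 8 transcripts, none called, that summed to 29.3 ± 1.78 and 32.3 ± 1.90 FPKM. In LOC102176916, with 7 transcripts, 3 were higher in the follicular phase, and the sum was 17.8, 14.8, 17.6, 12.0 and 10.9 FPKM in the luteal and 27.5, 21.2, 35.8, 28.5 and 31.8 FPKM in the follicular ovaries, which did not overlap.

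Between the phases, 144 of the 929 tested lncRNAs (15.5%) passed an adjusted p of 0.05, 50 (5.38%) higher in the luteal and 94 (10.1%) higher in the follicular phase. Over all 32842 transcripts tested the background was 17.3%, with 7.47% luteal and 9.82% follicular, so the share of lncRNAs called was near that of the table as a whole. The remaining 68 lncRNAs did not reach 0.1 FPKM in at least 5 ovaries and were not tested. No overlap between the phases was seen for 58 lncRNAs that were higher in the luteal phase (6.24%, against 6.63% of all transcripts) and for 71 that were higher in the follicular phase (7.64%, against 8.62%). Among the calls, 44 luteal and 59 follicular ones had ranges that did not overlap. In the other classes of the table, the shares called luteal and follicular were 7.57% and 9.79% for mRNA, 2.33% and 23.3% for misc_RNA, 5.51% and 12.1% for assembled lincRNA, 7.65% and 4.31% for assembled antisense lncRNA and 9.16% and 8.33% for transcripts of uncertain coding potential. These differences between classes were not tested.

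The excess of follicular over luteal calls depended on the threshold, on the scale of the ovaries and on single ovaries. At an adjusted p under 0.01 it turned round, with 29 luteal and 23 follicular calls. As deposited, 34.7% of the calls were luteal, but the median log2 fold change of all tested transcripts was itself -0.15, and that of the tested lncRNAs -0.21. With each ovary shifted to a common median, 61 lncRNAs were higher in the luteal and 64 in the follicular phase (48.8% luteal), after quantile normalization 70 and 73 (49.0%), and on the TPM scale 51 and 50 (50.5%). On those scales the median of all transcripts was -0.05, -0.07 and -0.07 and that of the lncRNAs -0.11, -0.11 and -0.12. With 1 ovary left out there were 42 to 51 luteal and 55 to 98 follicular calls. The follicular count was 56 and 58 without luteal replicates 4 and 5 and 59, 55, 60 and 57 without follicular replicates 1, 3, 4 and 5, and luteal calls then made up 42.0% to 46.7% of all.

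As a description, without a test, luteal calls were larger in fold and lower in level than follicular ones. The median log2 fold change was 1.53 among luteal calls and -0.98 among follicular calls, at least 4-fold differences were seen in 13 luteal and 4 follicular calls, and at least 2-fold differences in 42 and 44. The 4-fold counts became 15 and 9 without luteal replicate 1, 14 and 7 without luteal replicate 3, and 3 and 1 with 1 added in place of 0.1, where the medians were 0.75 and -0.56. The median level was 1.10 FPKM for luteal and 2.30 FPKM for follicular calls, and among the lncRNAs of at least 10 FPKM there were 2 luteal and 15 follicular calls. With a common median these were 2 and 10, after quantile normalization 2 and 15, and on the TPM scale 2 and 9. Without follicular replicate 5 they were 4 and 9. For all transcripts of at least 10 FPKM there were 992 luteal and 1119 follicular calls as deposited, and the median log2 fold changes of all luteal and follicular calls were 1.16 and -0.76 at median levels of 6.15 and 5.41 FPKM. The share called was 7.72% at 0.1 to 0.5 FPKM, 13.3% at 0.5 to 1, 21.1% at 1 to 10 and 29.6% at 10 to 100 FPKM, and 1 of the 5 above that was called. For mRNA transcripts the shares in the same ranges were 6.51%, 8.41%, 17.8%, 33.4% and 52.7%. Genes that spanned under 5 kb, 5 to 50 kb and 50 kb or more of the annotated assembly had 14.8%, 16.2% and 14.4% of their tested lncRNAs called.

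**Figure D4:**
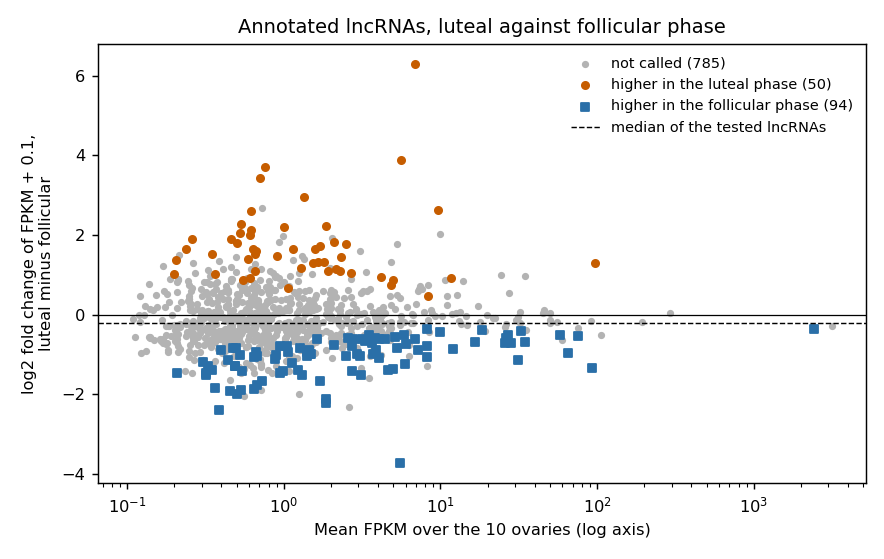
Log2 fold change on the log2(FPKM + 0.1) scale, luteal minus follicular, against mean FPKM over the 10 ovaries (log axis) for the 929 tested annotated lncRNAs, with 50 luteal calls (circles), 94 follicular calls (squares) and the rest in grey. The dashed line is their median, -0.21, and 2 luteal but 15 follicular calls lie at or above 10 FPKM.

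The largest luteal difference was in XR_001917326.1 (LOC106503633). It had 10.6, 21.4, 10.7, 13.3 and 12.9 FPKM in the luteal ovaries and 0.189, 0.0646, 0.0831, 0.0667 and 0 FPKM in the follicular ovaries. The phases were far apart, with a log2 fold change on the log2(FPKM + 0.1) scale of 6.30 ± 0.30 (SE) and an adjusted p of 1.02e-06, and since the follicular values lie near or below 0.1 the size depends on that added constant (3.73 with 1 added). The gene overlaps SLC16A12, a transporter of creatine, which had 50.9 ± 8.27 FPKM in the luteal and 0.356 ± 0.159 FPKM in the follicular phase (SD, n = 5), a log2 fold change of 6.86 ± 0.22. PANK1, which codes for a pantothenate kinase of coenzyme A synthesis, lies 33524 bp away and had 23.8 ± 7.84 and 4.52 ± 0.613 FPKM.

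XR_309871.3 (LOC102171206) had 7.69, 6.69, 7.97, 15.5 and 15.2 FPKM in the luteal and 0.625, 0.625, 0.438, 0.494 and 0.794 FPKM in the follicular ovaries. Luteal replicates 4 and 5 were the highest, and all 5 were above the follicular range. The log2 fold change was 3.87 ± 0.27 (2.79 with 1 added) and the adjusted p was 1.62e-05. BOLA1, the mitochondrial protein gene 195 bp away, had a smaller difference in the same direction, 23.9 ± 6.37 against 13.7 ± 1.44 FPKM, and LOC102171944 on the other side had 22.6 ± 3.02 and 35.1 ± 7.75 FPKM, the opposite direction.

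XR_001918402.1 (LOC108636462) was at a higher level, with 14.1, 9.87, 25.8, 17.8 and 15.8 FPKM in the luteal and 2.12, 2.86, 3.15, 2.77 and 1.74 FPKM in the follicular ovaries, a log2 fold change of 2.63 ± 0.25 and an adjusted p of 9.93e-05. The phases did not overlap. XR_001919278.1 (LOC108637768), which overlaps SUSD4, a gene of the complement system, had 2.70 to 3.62 FPKM in the luteal phase and 0.300 to 0.648 FPKM in follicular replicates 1, 3, 4 and 5, but 1.63 FPKM in follicular replicate 2. Its log2 fold change was 2.24 ± 0.37 with an adjusted p of 0.00270 (1.32 with 1 added), and that of SUSD4 was 1.43 ± 0.20.

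The other large luteal calls were of lncRNAs that reached at most 6.22 FPKM in the luteal and 0.383 FPKM in the follicular phase. XR_001918691.1 (LOC108636993) had 1.38, 2.27, 0.909, 2.48 and 0.543 FPKM in the luteal ovaries, 0.0525 FPKM in follicular replicate 2 and was listed at 0 in the other 4. XR_001919619.1 (LOC108638192), 62755 bp from SOCS3, a feedback inhibitor of cytokine signalling, had 0.802 to 1.64 FPKM in the luteal ovaries, 0.219 and 0.0208 FPKM in follicular replicates 1 and 4 and 0 in the other 3. Its adjusted p was 0.000246, and SOCS3 had 51.9 ± 11.6 and 15.3 ± 8.24 FPKM (SD, n = 5). XR_001918655.1 (LOC108636958), next to MAX, had 0.604, 1.15, 0.686, 6.22 and 4.05 FPKM in the luteal ovaries, with replicates 4 and 5 highest, and at most 0.383 FPKM in the follicular ovaries (adjusted p = 0.0144).

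XR_310329.3 (LOC102187773) had 0.647 to 1.04 FPKM in luteal replicates 2 to 5, 2.36 FPKM in luteal replicate 1 and at most 0.228 FPKM in the follicular phase. XR_001295580.1 (LOC106502025) had 0.717 to 1.37 and 0 to 0.228 FPKM, and XR_001917904.1 (LOC108635642) 0.493 to 3.41 and 0.162 to 0.320 FPKM. No phases overlapped in these 3, with log2 fold changes of 2.61 ± 0.46, 2.27 ± 0.37 and 2.20 ± 0.46 and adjusted p-values of 0.00376, 0.00240 and 0.00908. Their follicular values also lie near the added 0.1, and with 1 added instead the log2 fold changes were 0.90, 0.77 and 1.05, all still called.

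The largest follicular difference was in XR_001919406.1 (LOC108637890). It had 0.376, 3.52, 0.529, 0.243 and 0.398 FPKM in the luteal and 5.34, 6.68, 13.2, 15.3 and 9.97 FPKM in the follicular ovaries. Luteal replicate 2 stood well above the other luteal ovaries but below all follicular ones. The log2 fold change was -3.73 ± 0.60 (-2.57 with 1 added) with an adjusted p of 0.00227. XR_001917598.1 (LOC108634448), 4637 bp from ARMCX2, had 1.05, 0.458, 0.901, 0.390 and 0.287 FPKM against 2.28, 2.59, 3.99, 1.85 and 4.88 FPKM, a log2 fold change of -2.21 ± 0.38 and an adjusted p of 0.00324. XR_001295782.2 (LOC106502192) had 1.03 to 2.78 FPKM in the luteal and 3.19 to 7.89 FPKM in the follicular phase.

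Further follicular calls were of lncRNAs below 2 FPKM in every ovary. XR_001917967.1 (LOC108635846) had 0.0865, 0.317, 0.348, 0.121 and 0.485 FPKM in the luteal and 1.52, 1.16, 0.683, 1.10 and 0.929 FPKM in the follicular ovaries. The phases did not overlap and the log2 fold change was -1.75 ± 0.37 (adjusted p = 0.00925). XR_001919475.1 (LOC108637979) overlaps ZFHX3, a transcription factor gene, and had 0 to 0.305 FPKM in the luteal and 0.613 to 0.926 FPKM in the follicular phase, a log2 fold change of -1.92 ± 0.38 against -0.09 ± 0.17 for ZFHX3. With 1 added in place of 0.1, the log2 fold changes of XR_001917598.1, XR_001917967.1 and XR_001919475.1 were -1.32, -0.71 and -0.61, and each was still called. XR_001919584.1 (LOC106503103), 4375 bp from the cyclin gene CCNE1, had 0 to 0.648 and 0.821 to 1.51 FPKM with an adjusted p of 0.0292, which was lost in 8 of 19 settings, among them without luteal replicate 4 or follicular replicate 1, 3, 4 or 5 (adjusted p up to 0.0705), with 0.01 added (0.0857) and on the TPM scale (0.0559).

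Of the other large follicular calls, XR_001917956.1 (LOC108635837), 87 bp from LSM8, came close to an overlap. Luteal replicate 2 had 0.273 FPKM and follicular replicate 1 had 0.275 FPKM. XR_001296791.2, under the symbol SYCN, which names a protein of secretory granules in the pancreas, had 1.78, 0.314, 0.476, 0.630 and 1.04 FPKM in the luteal and 2.31, 3.33, 2.51, 2.75 and 1.81 FPKM in the follicular ovaries. XR_001917567.1 (LOC102168615) had 0.625 FPKM in luteal replicate 1, just below the follicular range of 0.628 to 1.17 FPKM, and 0.0683 to 0.135 FPKM in the other luteal ovaries. XR_001918427.1 (LOC106502397), 30489 bp from the transcription factor gene NFIB, had 0.271 to 0.685 and 0.970 to 1.84 FPKM.

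**Figure D5:**
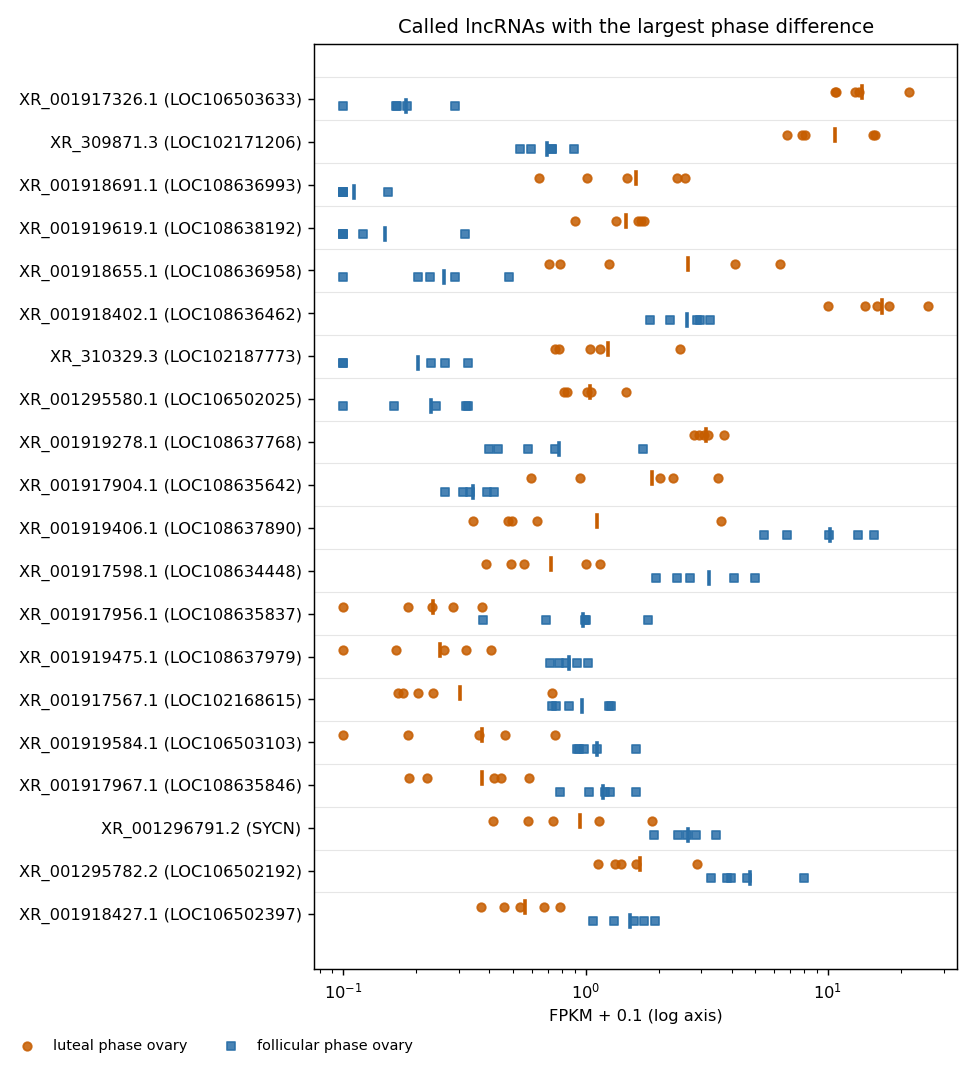
FPKM + 0.1 (log axis) in each ovary for the 10 luteal and 10 follicular calls with the largest log2 fold change among those whose phases do not overlap, with circles for luteal and squares for follicular ovaries and short bars for the phase means. XR_001917326.1 has at least 10.6 FPKM in the luteal and at most 0.189 FPKM in the follicular ovaries, and in XR_001919406.1 luteal replicate 2 stands apart at 3.52 FPKM.

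Of the 12 XR identifiers in the study's text, 3 are typed misc_RNA in the table and were left out. The study named the other 9, which are annotated lncRNAs, as higher in a phase of these same ovaries. Their calls here are therefore not independent of that choice. Among the 9 annotated lncRNAs, 3 described above were among the largest calls. Of the other 6, XR_001918177.1 (LOC108636216), which overlaps HERC6, was the only one that was higher in the luteal phase, with 4.05 to 4.28 FPKM in 4 luteal ovaries, 1.94 FPKM in luteal replicate 3 and 1.26 to 1.93 FPKM in the follicular ovaries. Its log2 fold change was 1.05 ± 0.23 (adjusted p = 0.0124), and that of HERC6 was 0.21 ± 0.27. XR_001919841.1 (LOC108638493) had 0.887 to 2.07 and 3.44 to 5.30 FPKM, XR_001918469.1 (LOC102176916) 1.91 to 3.38 and 4.80 to 8.43 FPKM, and XR_001919591.1 (LOC108638116) 2.04 to 3.02 and 3.22 to 7.63 FPKM, each without overlap. XR_001917610.1 (LOC106503791), inside the span of STAG2, a cohesin subunit, had 3.10 to 3.92 and 4.89 to 6.22 FPKM, a log2 fold change of -0.61 ± 0.11 beside -0.46 ± 0.06 for STAG2.

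XR_001919196.1 (LOC108637648) had 0.133, 0.723, 1.27, 0.441 and 0.656 FPKM in the luteal and 3.92, 0.768, 3.37, 3.40 and 3.82 FPKM in the follicular ovaries. Follicular replicate 2 lay inside the luteal range, the other 4 far above it, and the log2 fold change was -2.12 ± 0.55 (-1.25 with 1 added) with an adjusted p of 0.0243. That call was lost without luteal replicate 4 or follicular replicate 1, 3, 4 or 5, with adjusted p-values up to 0.0578. The overlapping gene LOC102180063 had 0.372 ± 0.239 and 1.90 ± 0.864 FPKM, a log2 fold change of -2.09 ± 0.51.

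The position of the lncRNA genes was taken from the same RefSeq annotation, in which 766 of the 807 genes had one. A protein-coding gene lay within 100 kb of 707 of them, and 239 overlapped a coding gene. The libraries were made with a directional kit, but the annotation table used here gives no strand and the sources used here do not say whether the counting used the strand of the reads, so a lncRNA and an overlapping gene may share reads. For each lncRNA gene the transcript with the lowest adjusted p stood for the gene. Over all coding genes tested, 15.9% were higher in the luteal and 27.8% in the follicular phase, with a median log2 fold change of -0.14.

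Where a lncRNA that was higher in the luteal phase overlapped a coding gene, the coding gene was higher in the luteal phase in 10 of 17 pairs, higher in the follicular phase in 3 and not called in 4. For lncRNAs higher in the follicular phase these numbers were 3, 12 and 7 of 22 pairs, and for lncRNAs not called 37, 65 and 101. The median log2 fold changes of the overlapping coding genes were 0.49, -0.50 and -0.16. Within 10 kb without overlap, 9 of 16 coding neighbours of luteal calls were luteal and 2 follicular, and of 54 neighbours of follicular calls 3 were luteal and 15 follicular, beside 55 and 118 of 412 for lncRNAs not called. For follicular calls the share of follicular neighbours at this distance was thus near that of all coding genes. Between 10 and 100 kb the counts were 8 and 2 of 32 for luteal calls, 6 and 19 of 50 for follicular calls and 61 and 111 of 398 for lncRNAs not called. These pairs were measured in the same ovaries, and the counts are a description without a test.

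Overlap did not always mean the same direction. Some pairs were chosen after their values were seen to show the range. XR_001919787.1 (LOC108638403, log2 fold change 1.72) overlaps ITGA1, an integrin chain, with 1.44 ± 0.10, and XR_001296059.2 (LOC106502463, 1.65) overlaps FABP7, a fatty acid binding protein, with 2.03 ± 0.45. XR_001918114.1 (LOC108636066, -1.39) overlaps CCND2, a cyclin of granulosa cell proliferation, with -0.66 ± 0.09, and XR_001917615.1 (LOC108634458, -1.24) overlaps COL4A5, a basement membrane collagen, with -0.83 ± 0.23. In the opposite sense, XR_001296343.2 (LOC106502707, -0.65) overlaps MICU2, a regulator of mitochondrial calcium uptake, with 1.20 ± 0.07, and XR_001295746.2 (LOC106502158, 1.10) overlaps PLD1, a phospholipase, with -0.49 ± 0.17.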

How the data were processed

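RNA of each ovary was sequenced after removal of ribosomal RNA as directional paired-end libraries. The deposited FPKM of each transcript were computed by the authors with Cuffdiff, after alignment by HISAT2 and assembly by StringTie. The genome build is not named in the sources used here, although the chromosomes in the study's text carry RefSeq accessions of the ARS1 goat assembly. Each of the 10 value columns was assigned to its ovary by phase and number, 0 columns were left over, and the separate lncRNA and mRNA tables, which repeat rows of the whole table, were not used. FPKM gives no counts, and the study gives its reads only as a total, so the depth of each ovary is unknown.

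log2(FPKM + 0.1) was compared with limma 3.58.1 (lmFit, eBayes with trend) in R 4.3.3, two-sided and without a replicate block, over all 32842 transcripts of every class with at least 0.1 FPKM in at least 5 of 10 ovaries. A call is a Benjamini-Hochberg adjusted p under 0.05 over all of them. Values per ovary were compared by two-sided exact permutation. The labels do not say that ovaries came from separate animals, and p-values measure the spread between these samples. Neighbours and names came from the RefSeq table of ARS1.2, in which all 997 accessions were found, and coordinates of that table are not printed. Some neighbours are not reported here. Coding neighbours were tested with mRNA FPKM summed per gene. Scripts ran in Python 3.11.15 (scipy 1.17.1, pandas 2.3.3) and were tested on simulated data.

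The named lncRNAs are the 10 of highest mean FPKM, the 10 largest calls without overlap in each direction, the 5 most and 5 least variable above 1 FPKM, up to 15 with a gene symbol, the annotated lncRNAs the study names, and the 3 genes with most transcripts. Members, lists and rules were chosen with earlier results of these data known. The model was repeated with pseudocounts of 1 and 0.01, without a filter or with at least 0.5 FPKM, with ovaries brought to a common median, quantile normalized or on the TPM scale, with untrended eBayes, with the replicate number as a block, at other thresholds and without each ovary in turn.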

Additional observations from a re-analysis of the deposited data

Results flagged for a closer look

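For each of 79 named lncRNAs and 5 summary measures, the highest or lowest of the 5 ovaries of a phase was compared with the others by Dixon's rule, which asks whether its gap to the nearest ovary exceeds 0.71 of the range of the phase. Of 168 groups examined, 158 of them of named lncRNAs, 23 held such an ovary, all in named lncRNAs. Chance flags about 1 in 20 groups of independent normal values, but these were FPKM with many values of 0, some lncRNAs were named for their values and some share a gene, so the count cannot be set against that share. Follicular replicate 2 was the ovary that stood apart in 8 of the 23, more than any other. It was also the ovary farthest from its phase for 284 of the tested lncRNAs. Among follicular ovaries it had the highest summed epithelial markers (43.1 FPKM, through KRT8 and KRT18) and the lowest summed stromal and immune markers (1705 and 14.2 FPKM), whose part in these values was not tested.

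In follicular replicate 2, XR_001918691.1 had 0.0525 FPKM beside 0 in the other 4 follicular ovaries, XR_001919278.1 had 1.63 FPKM beside at most 0.648, and XR_309949.3 had 16.6 FPKM beside at most 0.822. The HNRNPF transcripts XR_001917406.1, XR_001917401.1 and XR_001917408.1 had 17.4, 14.8 and 14.1 FPKM there, each above its other follicular values. XR_001919196.1 had 0.768 FPKM beside at least 3.37, and XR_001919916.1 was listed at 0 beside at least 0.598. In the other follicular ovaries, XR_001919619.1 had 0.219 FPKM in replicate 1, TANGO2 (XR_001917680.1) had 3.62 FPKM in replicate 4, and XR_001919584.1 had 1.51 FPKM in replicate 5. Of the LOC102168946 transcripts, XR_001297061.2, XR_001297062.2 and XR_001919917.1 had 0.0992, 0.607 and 0.604 FPKM in follicular replicate 3, and XR_001919919.1 had 0.689 FPKM in follicular replicate 5, each with the other follicular ovaries at or near 0.

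In the luteal phase, XR_001917326.1 had 21.4 FPKM in replicate 2 beside 10.6 to 13.3 in the others, and XR_001919406.1 had 3.52 FPKM there beside at most 0.529. Luteal replicate 1 stood apart in XR_310329.3 with 2.36 FPKM and in XR_001917567.1 with 0.625 FPKM. Luteal replicate 3 stood above the others in XR_001295782.2 with 2.78 FPKM and below them in XR_001918177.1 with 1.94 FPKM and in XR_001297058.2 with 0.722 FPKM. XR_001918196.1 had 13.7 FPKM in luteal replicate 4 beside at most 12.5.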

How the results depend on the processing

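The 144 calls became 52 at an adjusted p of 0.01, 297 at an unadjusted p of 0.05 and 86 with a fold of at least 2, and lay between 101 and 155 under the other filters, pseudocounts, scalings and moderation and between 98 and 146 with any 1 ovary left out. With the replicate number as a block there were 96, 38 luteal and 58 follicular, of which 91 were among the 144. Samples of equal number correlated at -0.00976 to 0.0469 in their deviations from the phase means, and 2 of 5 pairs correlated best with their own number. No clear pairing by number was seen, but such correlations cannot show whether ovaries of equal number shared an animal or a day.

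Of 36 calls among 73 named and tested lncRNAs, 26 held in every one of up to 19 settings, 10 were lost in at least 1, 7 of them under the block, and none changed direction. Of those not called, 3 were called in at least 1 setting, XR_001295696.2 and XR_311001.3 under the block (adjusted p = 0.0483 and 0.0392) and XR_309827.3 after quantile normalization. For the 7 the block gave adjusted p-values from 0.0545 (SYCN) to 0.12 (XR_001297060.2), with 0.0609 for XR_001918655.1. The median SD of 0.477 was 0.216 with a pseudocount of 1, 0.575 with 0.01 and 0.383 over lncRNAs of at least 1 FPKM. The difference in detected lncRNAs, luteal minus follicular, was -4 above 0 FPKM, 0.2 at 0.1 FPKM, -16.4 at 1 FPKM (exact p = 0.262) and -7.5 to 0.75 with 1 ovary left out. That in the log2 ratio to mRNA was 0.0166, -0.000276 over transcripts of at least 0.1 FPKM and -0.0031 to 0.0402 with 1 ovary left out. The summed FPKM differed by -1860 to -1380 with 1 ovary left out (exact p at most 0.0317), by -984 without the most abundant lncRNA (exact p = 0.00794; the share of all FPKM then by -0.116 in place of -0.198 percentage points) and by -988 without the transcripts that carry a gene symbol (exact p = 0.0317, chosen after seeing the data). The cause of these shifts was not tested. The search for promoter motifs was not run.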
